A study of Mus musculus with 18 samples.

Results

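Secreted Wnt antagonists and R-spondins were examined in brain tissue and neurospheres of mice at postnatal day 0 (P0). The 10 genes were *Sfrp1*, *Sfrp2*, *Frzb*, *Sfrp4*, *Dkk2*, *Dkk3*, *Notum*, *Rspo1*, *Rspo2* and *Rspo3*. They were found by name in each of 4 tables of FPKM values (sequenced fragments divided by transcript length in kilobases and by library size), which hold 23138 named genes for *Kdm2b* hippocampi, 23398 for neurospheres and 54429 each for cortices and *Rnf2* hippocampi. For names with more than 1 entry the values come from the entry of highest mean.

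The study asked how the CxxC zinc finger of KDM2B, which binds unmethylated CG dinucleotides and brings the PRC1 complex to them, acts in the developing hippocampus. Control (Kdm2bfl/+ or Kdm2bfl/fl) and cKO (Kdm2bEmx1-delta-CxxC) libraries were compared, 3 and 3 of hippocampus, 2 and 2 of neurospheres and 2 and 2 of cortex, as were 2 Rnf2 control (Rnf2fl/+ or Rnf2fl/fl) and 2 Rnf2 cKO (Rnf2Emx1-cKO) libraries of hippocampus. RNF2 is the main ubiquitin ligase of PRC1. Neurospheres were hippocampal progenitors that had been grown in FGF2 and EGF, and labels do not tell controls with 1 floxed allele from those with 2.

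*Emx1*-Cre acts in the dorsal telencephalic lineage, so meninges, blood vessels, microglia and thalamus of a cKO brain keep their gene. *Kdm2b* itself was 29.4 FPKM ± 2.15 (SD, n = 3) in control and 27.2 ± 0.992 (n = 3) in cKO hippocampi, and it was called in none of the 4 comparisons. The allele removes the exon that encodes CxxC, which values over a whole gene do not resolve. *Rnf2* was 31.5 FPKM ± 1.02 (SD, n = 2) in control and 28.1 ± 0.494 (n = 2) in Rnf2 cKO hippocampi, so the libraries labelled Rnf2 cKO held most of the control level, and the gene was not called (adjusted p = 0.762, limma). Labels do not say which exons of *Rnf2* were removed, and values over a whole gene need not show the loss of some. For P0 neocortical tissue of Rnf2 cKO mice the paper reports a large fall of H2AK119ub, the histone mark made by PRC1. Values of the cortical and *Rnf2* tables gave back whole reads, 18480515 to 21905224 per cortical and 14654894 to 16334420 per *Rnf2* library, while the FPKM values of the other tables do not show the depth behind them.

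Wnt ligands are lipid-bearing proteins that bind Frizzled receptors with the co-receptors LRP5 and LRP6 and thereby stabilise beta-catenin. Secreted proteins set how much ligand reaches the receptor. In the forebrain, Wnt ligands from the cortical hem are known to pattern and expand the hippocampal primordium. Secreted Frizzled-related proteins (SFRP1, SFRP2, SFRP4 and FRZB) carry a Frizzled-like domain that binds Wnt ligands. DKK2 binds LRP5 and LRP6, whereas DKK3 is a divergent family member. NOTUM is an enzyme that removes the lipid from Wnt ligands and is known as a feedback inhibitor. R-spondins act the other way. They bind LGR4 to LGR6 and the ubiquitin ligases ZNRF3 and RNF43, which otherwise clear Frizzled receptors from the surface.

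All 10 are protein-coding genes on different loci of GRCm38 (GENCODE vM21). The Frizzled-related genes are *Sfrp1* (chr8:23411502-23449632), *Sfrp2* (chr3:83766321-83774316), *Frzb* (chr2:80411970-80447625) and *Sfrp4* (chr13:19623104-19632994). *Dkk2* lies at chr3:132085292-132180304, *Dkk3* at chr7:112116017-112159057 and *Notum* at chr11:120653788-120661175. The R-spondin genes lie at chr4:124986430-125009099 (*Rspo1*), chr15:43020794-43170826 (*Rspo2*) and chr10:29452416-29535867 (*Rspo3*).

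RefSeq promoter entries (build GRCm38.p6) were matched for 4 of the 10 genes, *Sfrp2*, *Rspo1*, *Frzb* and *Dkk2*, and not for *Sfrp1*, *Sfrp4*, *Dkk3*, *Notum*, *Rspo2* and *Rspo3*. The 250 bases upstream of the start are shown for *Sfrp2* and *Rspo1*, which rose in the same cKO hippocampi, since CG dinucleotides are what the deleted zinc finger binds. Each runs 5′ to 3′ on the strand of the gene, with every CG in capitals.
Sfrp2: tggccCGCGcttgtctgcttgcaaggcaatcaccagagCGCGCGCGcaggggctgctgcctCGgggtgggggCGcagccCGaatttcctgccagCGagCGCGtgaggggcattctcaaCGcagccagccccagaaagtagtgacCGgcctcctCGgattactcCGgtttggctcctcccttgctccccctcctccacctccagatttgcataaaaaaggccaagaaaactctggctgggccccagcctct
Rspo1: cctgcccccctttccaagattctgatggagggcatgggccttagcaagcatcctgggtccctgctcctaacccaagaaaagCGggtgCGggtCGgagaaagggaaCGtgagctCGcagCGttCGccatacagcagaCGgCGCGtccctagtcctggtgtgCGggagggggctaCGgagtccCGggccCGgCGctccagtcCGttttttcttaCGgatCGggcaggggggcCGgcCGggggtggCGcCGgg
*Sfrp2* lies on the plus strand and its window is chr3:83766071-83766320. *Rspo1* is on the plus strand with its window at chr4:124986180-124986429. For *Frzb*, on the minus strand, the RefSeq window is chr2:80447397-80447646, most of which lies inside the gene as GENCODE places it, so its sequence is not shown. The stretches held 16 CG for *Sfrp2*, 22 for *Rspo1* and 16 for *Frzb*, and the stretch of *Dkk2* held 7. The median over 32851 promoters was 6, and 25.4% of promoters had at least 16, 14.8% at least 22 and 46.3% at least 7. CTTTGAT and CTTTGAA, core letters bound by TCF and LEF factors, were searched on both strands of the 300 bases from 250 before to 50 after the start. Neither was found in the 4 windows, and 3.73% and 5.14% of all promoters held them.

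**Figure D1:**
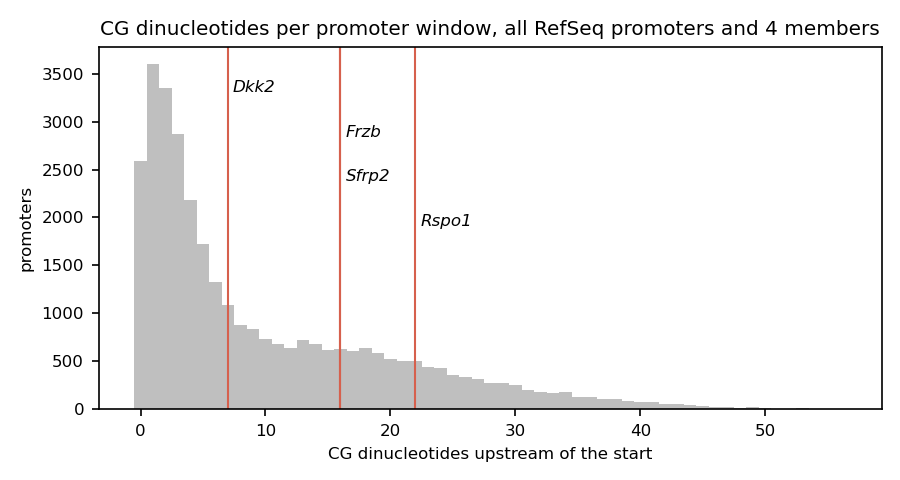
Number of promoters (y axis) by the count of CG dinucleotides in the 250 bases upstream of the start (x axis) over 32851 RefSeq promoters, with red lines at the genes. *Dkk2* stands at 7, *Frzb* and *Sfrp2* together at 16 and *Rspo1* at 22, all above the median of 6.

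Control levels of the 10 genes differed widely, and FPKM is per length, so they can be ordered within a table. In the 3 *Kdm2b* control hippocampi the order ran from *Dkk3* (31.7 FPKM) through *Sfrp1* (7.77), *Frzb* (6.35), *Rspo2* (6.27), *Rspo3* (3.60), *Sfrp2* (3.35), *Notum* (2.86), *Rspo1* (1.75) and *Sfrp4* (1.03) to *Dkk2* (0.398). The ranges of *Sfrp1* and *Frzb*, of *Frzb* and *Rspo2*, and of *Rspo3* and *Sfrp2* overlapped, and those of the other neighbours did not. Control neurospheres were led by *Sfrp2* (13.0 FPKM), followed by *Frzb* (2.71) and *Sfrp4* (2.35), whose ranges overlapped, and by *Sfrp1* (1.10). *Dkk2* and *Rspo2* were listed at 0 in both control neurosphere libraries. Control cortices were led by *Sfrp1* (35.7 FPKM), before *Dkk3* (9.42), *Sfrp2* (8.48) and *Rspo3* (7.36), and the ranges of *Dkk3* and *Sfrp2* overlapped. In the control hippocampi of the *Rnf2* table *Dkk3* (30.4 FPKM) and *Sfrp1* (12.8) led again, while *Notum* stood at 0.736 against 2.86 in the *Kdm2b* table. The tables were normalised separately, so levels across them are given side by side and were not tested.

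**Figure D2:**
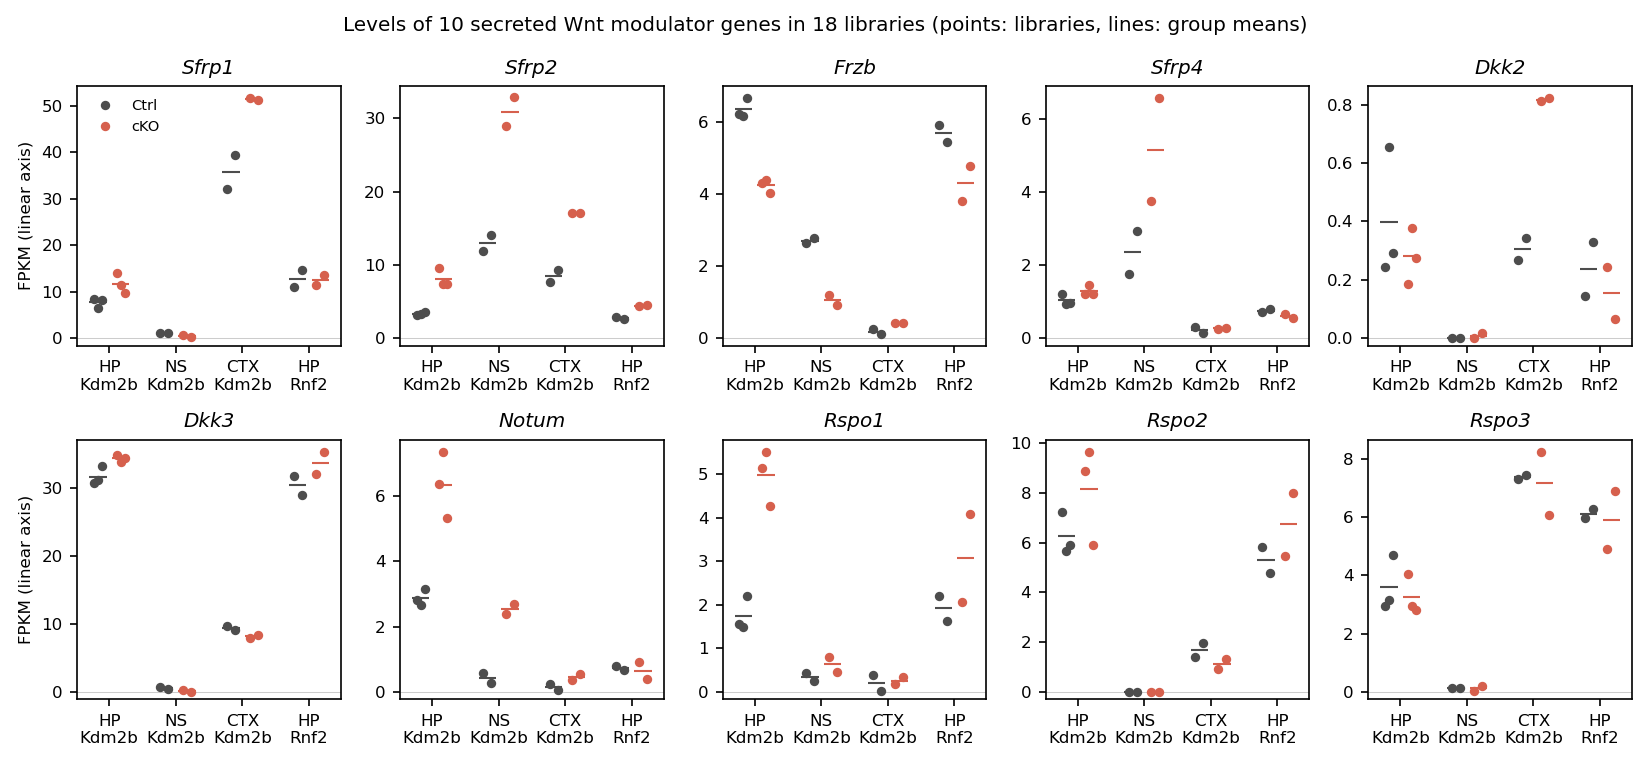
FPKM (y axis, linear, a scale for each gene) of the 10 genes in all 18 libraries, by tissue and targeted gene (HP, hippocampus; NS, neurospheres; CTX, cortex), with control in grey, cKO in red and lines at group means. *Sfrp2* is higher in every cKO library than in every control of the same table, while *Notum* rises in *Kdm2b* hippocampi and neurospheres and overlaps in *Rnf2* hippocampi.

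Hippocampi of Kdm2b cKO mice had more RNA of *Sfrp1*, *Sfrp2*, *Notum* and *Rspo1* and less of *Frzb*. A gene was called at an unadjusted p below 0.05 and a log2 fold change above 0.4 in size, with limma on log2(FPKM + 1), which understates changes of low genes. Of the 10 genes, 9 passed the filter of a mean of at least 0.5 FPKM and 5 were called, 4 higher and 1 lower. Among all 13446 genes tested 6.14% were called, 3.89% higher and 2.25% lower. All 5 also passed with Benjamini-Hochberg adjusted p values over all genes, a rule met by 4.41% of them. The median log2 fold change was 0.32 over the 9 genes and 0.01 over all genes. In bulk tissue, fewer cells of a type and less RNA per cell cannot be told apart.

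Among the Frizzled-related proteins *Sfrp2* rose most. It was 3.17, 3.25 and 3.63 FPKM in control and 9.63, 7.37 and 7.38 in cKO hippocampi, so the lowest cKO library lay well above the highest control. The ratio of the means was 2.42 and the log2 fold change 1.06 (SE 0.11, adjusted p = 0.00186, limma). *Sfrp1* was 8.53, 6.51 and 8.28 FPKM in control and 14.0, 11.5 and 9.70 in cKO hippocampi, again without overlap. Its ratio was 1.51 and its log2 fold change 0.53 (SE 0.13, adjusted p = 0.0425, limma).

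*Frzb*, which encodes SFRP3, moved the opposite way. Its levels were 6.21, 6.17 and 6.67 FPKM in control and 4.30, 4.38 and 4.03 in cKO hippocampi, and all cKO libraries lay below all controls. The ratio was 0.668 and the log2 fold change -0.49 (SE 0.08, adjusted p = 0.0100, limma). *Sfrp4* ranged from 0.931 to 1.20 FPKM in control and from 1.20 to 1.46 in cKO hippocampi and was not called, with a 95% interval of its log2 fold change from -0.08 to 0.43. The 4 related genes thus held 2 that rose, 1 that fell and 1 that did not pass.

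*Notum*, the Wnt deacylase, was 2.80, 2.65 and 3.14 FPKM in control and 6.36, 7.36 and 5.32 in cKO hippocampi. The groups did not overlap, the ratio of the means was 2.21, and the log2 fold change was 0.92 (SE 0.12, adjusted p = 0.00356, limma). *Dkk3*, the most abundant of the 10 genes, was 30.7, 31.2 and 33.2 FPKM in control and 34.9, 33.8 and 34.5 in cKO hippocampi. All cKO values lay above all controls, yet the ratio was 1.09 and *Dkk3* was not called (log2 fold change 0.12, adjusted p = 0.210, limma). Groups did not overlap for 6 of the 9 genes, with 5 above and 1 below, and for 29.2% of all genes, with 14.9% above and 14.3% below. *Dkk2* was between 0.187 and 0.656 FPKM and was not tested.

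R-spondins differed among themselves. *Rspo1* was 1.56, 1.49 and 2.21 FPKM in control and 5.14, 5.52 and 4.28 in cKO hippocampi, which left a wide gap between the groups. Its ratio of 2.84 was the largest of the 10 genes here, and its log2 fold change was 1.12 (SE 0.13, adjusted p = 0.00263, limma). *Rspo2* was 7.24, 5.67 and 5.90 FPKM in control and 8.89, 9.66 and 5.93 in cKO hippocampi, so that cKO replicate 3 lay among the controls. It was not called (log2 fold change 0.32, 95% interval -0.04 to 0.67), but was called at 0.50 without cKO replicate 3 and at 0.41 without control replicate 1. *Rspo3* was 2.96, 3.16 and 4.68 FPKM in control and 4.04, 2.95 and 2.80 in cKO hippocampi, with overlapping groups and a log2 fold change of -0.10 (95% interval -0.47 to 0.26).

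Markers of other cells moved in the same hippocampi. Summed intermediate progenitor markers (*Eomes*, *Neurog2*, *Neurog1*, *Insm1*, *Btg2*) were 63.6 to 67.7 FPKM in control and 97.5 to 107 in cKO hippocampi, with 3 of 4 tested called higher. Neural progenitor markers summed to 1090 to 1170 FPKM in control and 1120 to 1240 in cKO, with *Pax6* (log2 fold change 0.83), *Nes* (0.52) and *Vim* (0.50) called higher, 3 of 7. Markers of Cajal-Retzius cells and hem summed to 122, 109 and 144 FPKM in control replicates 1, 2 and 3. In cKO replicates 1, 2 and 3 they summed to 136, 142 and 108 FPKM, with *Lmx1a* (0.67) called higher, 1 of 5. These sums overlapped between the groups. *Notum*, *Rspo1* and *Frzb* had the order of these sums over the libraries of each group, and *Sfrp1* and *Sfrp2* had it in neither group. Summed neuron markers were 1550 to 1620 and 1180 to 1430 FPKM, with 2 of 7 called lower. Choroid plexus markers summed to 5.37 to 16.8 FPKM in controls and to 61.0, 43.1 and 7.82 in cKO replicates 1, 2 and 3, with 3 of 4 tested called higher, so cKO replicate 3 was lowest of the cKO libraries in these markers as it was in *Sfrp1*, *Frzb*, *Notum*, *Rspo1*, *Rspo2* and *Rspo3*. Of these markers *Clic6*, called higher, passed the filter through the cKO group alone (mean 0.255 FPKM in control, 0.769 in cKO). The choroid plexus sums were carried by *Ttr* (mean 7.26 in control, 33.1 in cKO), while *Folr1* (0.778 and 1.00) was not called. None of the choroid plexus calls passed with adjusted p values. *Sfrp1*, and *Rspo3*, which was not called, had the order of the choroid plexus sums over the 3 cKO libraries. Neither had it over control replicates 1, 2 and 3, where those sums were 6.36, 5.37 and 16.8 FPKM. There *Sfrp1* was 8.53, 6.51 and 8.28 FPKM and *Rspo3* 2.96, 3.16 and 4.68. *Notum*, *Rspo1* and *Frzb* had the order of the choroid plexus sums over the controls and not over the cKO libraries. Thalamus markers summed to 24.1 to 27.7 and 35.4 to 38.4 FPKM, with 2 of 3 tested called higher. Microglia markers summed to 38.6 to 44.4 and 50 to 66.4 FPKM, with 3 of 4 called higher. Meningeal markers overlapped, at 48.2 to 65.2 and 37.5 to 62.6 FPKM with 0 of 8 called. Over replicates 1, 2 and 3 they summed to 65.2, 48.2 and 62.1 FPKM in control and 62.6, 59.2 and 37.5 in cKO. *Sfrp1* had the order of these meningeal sums in each group. The 8 hippocampal markers were all present, at sums of 547 to 596 and 507 to 562 FPKM. The part of these cells in the results was not tested. Without cKO replicate 3, without replicate 1 and without replicate 2, the 5 called genes stayed called in the same directions.

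**Figure D3:**
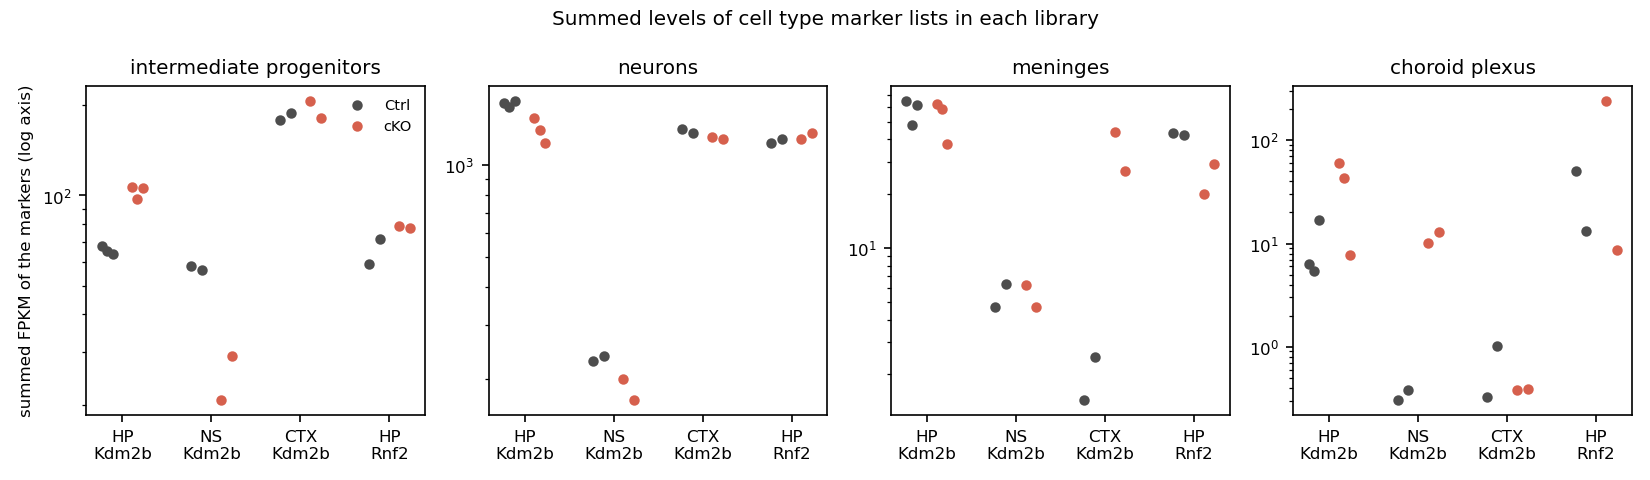
Summed FPKM of 4 marker lists (y axis, log scale) in each library, by tissue and targeted gene, with control in grey and cKO in red. Meningeal markers sum to 1.44 to 2.49 in control and 26.7 to 44.1 in cKO cortices, and choroid plexus markers vary by library in both hippocampal tables.

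Other genes of the pathway were read from lists. None of the 5 tested of 12 other secreted Wnt modulators and none of the 7 tested of 9 receptors of Dickkopf proteins and R-spondins were called in Kdm2b cKO hippocampi. Among these 7, *Kremen1* and *Znrf3* had the same shared entry, which was counted for each, and *Rnf43* shared its entry with another gene. Of 19 Wnt ligand genes 10 were tested and 7 were called, all higher, and *Wnt3*, *Wnt3a*, *Wnt5a*, *Wnt5b*, *Wnt8b* and *Wnt9a* passed with adjusted p values. *Wnt8b* had the largest log2 fold change of these, 1.16, at 1.89 FPKM ± 0.715 (SD, n = 3) in control and 5.34 ± 0.453 (n = 3) in cKO hippocampi. *Wnt3a*, at 0.270 FPKM in control and 1.08 in cKO, passed the filter through the cKO group alone, which favours a call. Of 9 Frizzled receptors tested 3 were called higher, *Fzd2* (log2 fold change 0.85), *Fzd9* (0.64) and *Fzd10* (0.78). Of 8 Wnt feedback targets 5 were called higher, among them *Lef1* (1.19), *Tnfrsf19* (0.48) and an entry that names *Axin2* and another gene (0.55), which passed with adjusted p values.

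Neurospheres addressed the same deletion in cultured progenitors. Kdm2b cKO neurospheres had more RNA of *Sfrp2*, *Notum* and *Sfrp4* and less of *Frzb*, while *Sfrp1* was called lower here but kept that call under only 5 of 14 alternatives. Of the 10 genes 5 passed the filter and all of those were called, 3 higher and 2 lower, in a comparison where 24.6% of 12227 genes were called, 11.4% higher and 13.2% lower. *Notum* and *Sfrp1* passed the filter only through the group in which each was higher, so nothing is read from the count against that share. With adjusted p values *Sfrp2*, *Frzb* and *Notum* were called, against 19.3% of all genes. Every group pair of the 5 was without overlap, 3 above and 2 below, as was that of 66.4% of all genes with 2 libraries against 2, 32.1% above and 34.4% below. In control replicate 1 entries without a gene name held 29.3% of all FPKM and *Mir6236* 22.6% of the rest. Rescaling to equal totals moved the median log2 fold change over all genes tested from -0.01 to 0.09 and the calls from 1392 higher and 1620 lower to 1250 higher and 826 lower. With equal totals *Sfrp2*, *Notum* and *Sfrp4* stayed called higher and *Frzb* lower, and *Sfrp1* lost its call. Fold changes were not centred on the moved median.

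*Sfrp2* was 11.9 and 14.0 FPKM in control and 28.9 and 32.9 in cKO neurospheres. Its ratio of 2.38 and log2 fold change of 1.19 (SE 0.11, adjusted p = 0.00243, limma) came from the most abundant of the 10 genes in these cells. *Notum* was 0.587 and 0.272 FPKM in control and 2.38 and 2.69 in cKO neurospheres, and passed the filter through the cKO group alone, which favours a call. Its ratio was 5.90 and its log2 fold change 1.31 (SE 0.18, adjusted p = 0.00711, limma). With no filter on low values the adjusted p was 0.0183 (limma).

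*Frzb* was 2.64 and 2.78 FPKM in control and 1.20 and 0.917 in cKO neurospheres. Both cKO libraries lay below both controls, with a ratio of 0.390 and a log2 fold change of -0.85 (SE 0.15, adjusted p = 0.0146, limma). *Sfrp4* was 1.76 and 2.93 FPKM in control and 3.74 and 6.58 in cKO neurospheres (log2 fold change 0.86, SE 0.27, adjusted p = 0.0735, limma). It lost its call without control replicate 1 (0.61) and without cKO replicate 2 (0.53).

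*Sfrp1* was low here, at 1.08 and 1.13 FPKM in control and 0.657 and 0.332 in cKO neurospheres. Its log2 fold change was -0.50 (SE 0.19, adjusted p = 0.120, limma), opposite in sign to that in hippocampi. The call was lost in 9 of 14 alternatives, among them a pseudocount of 0.1 (-1.07), equal FPKM totals (-0.45), adjusted p values, both replicate blocks, and leaving out single libraries, without control replicate 1 (-0.52), without control replicate 2 (-0.49) and without cKO replicate 2 (-0.34). *Dkk3* was 0.672 and 0.355 FPKM in control and 0.326 and 0.0353 in cKO neurospheres and *Rspo1* 0.432 and 0.250 in control and 0.811 and 0.467 in cKO, and neither was tested. *Rspo3* did not exceed 0.202 FPKM in any library. *Rspo2* was listed at 0 in all 4 and *Dkk2* in 3, with 0.0173 FPKM in cKO replicate 2.

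Among the hippocampal markers *Neurod6* and *Neurod2* were under 0.1 FPKM in neurospheres. Summed neuron markers were 229 to 238 FPKM in control and 171 to 200 in cKO, carried by *Map2* (mean 199 and 160). Of 6 neuron markers tested 1 was called higher and 3 lower, and of these *Camk2a* (1.19 and 0.374) passed the filter through the control group alone. Neural progenitor markers summed to 4150 to 4590 FPKM in control and 5540 to 7360 in cKO, with 2 of 7 called higher and 1 lower. Choroid plexus markers summed to 0.304 to 0.379 and 10.1 to 12.9 FPKM, carried by *Otx2*, while *Folr1* was listed at 0 and *Kl* had a mean of 0.0177 in control and 0.0206 in cKO. Intermediate progenitor markers summed to 56.2 to 58.1 and 20.7 to 29.1 FPKM, with 1 called higher and 1 lower of 3 tested. The fall of the sum was carried by *Btg2* (mean 51.8 in control, 15.4 in cKO), called lower. *Insm1* (2.28 and 5.84) was called higher and *Neurog2* (2.94 and 3.49) was not called. The part of these cells in the neurosphere results was not tested.

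*Lrp5* (log2 fold change 0.96), *Kremen1* (0.86) and *Lgr5* (0.71), which bind Dickkopf proteins or R-spondins, were called higher and *Rnf43* (-1.02) lower among 7 tested, and all 4 passed with adjusted p values. *Igfbp4*, a secreted LRP6 antagonist, was called lower (-1.34), 1 of 2 other modulators tested. None of 6 Wnt ligands tested were called, *Fzd10* (1.26) rose and *Fzd9* (-1.05) fell among 9 Frizzled receptors, of which 1 was called higher and 2 lower, and 6 of 8 feedback targets were called higher, *Lef1*, *Tcf7*, *Nkd1*, *Nkd2* and *Sp5* also with adjusted p values. *Lef1* (0.393 FPKM in control, 2.17 in cKO), *Nkd2* (0.439, 1.64) and *Sp5* (0.375, 1.86) passed the filter through the cKO group alone, which favours a call.

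The effect of the deletion was compared directly between hippocampi and neurospheres as the interaction of genotype and table for the 5 genes tested in both. *Sfrp1* differed by 1.04 on the log2 scale (SE 0.22, adjusted p = 0.00646, limma), a test that 26.9% of all genes passed. In neurospheres *Sfrp1* passed the filter through the control group alone, and with no filter on low values the difference was again 1.04 (adjusted p = 0.0142, limma). No difference was called for *Sfrp2* (-0.13, 95% interval -0.50 to 0.24), *Notum* (-0.40, -0.84 to 0.05), *Frzb* (0.36, 0.06 to 0.67, adjusted p = 0.0775) or *Sfrp4* (-0.69, -1.31 to -0.07, adjusted p = 0.0924, limma). *Sfrp4* passed without neurosphere control replicate 2 and *Frzb* and *Sfrp4* without neurosphere cKO replicate 1, at differences of -0.95, 0.46 and -1.03.

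Cortices of the same genotype were compared to ask whether the neocortex changed likewise. *Sfrp1*, *Sfrp2* and *Dkk2* were called higher of 6 genes that passed the filter, and none lower. Of 15691 genes 7.01% were called, 4.73% higher and 2.28% lower, and with adjusted p values none of the 10 genes and 0.427% of all genes were called. At an unadjusted p below 0.05 the 3 called genes were also called with limma-voom on the recovered reads, which called *Rspo2* lower as well.

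*Sfrp2* was 7.67 and 9.29 FPKM (364 and 425 reads) in control and 17.1 and 17.1 (721 and 687 reads) in cKO cortices. The ratio was 2.01 and the log2 fold change 0.94 (SE 0.10, adjusted p = 0.0575, limma). *Sfrp1* was 32.1 and 39.4 FPKM in control and 51.7 and 51.3 in cKO cortices, with no overlap and a log2 fold change of 0.52 (SE 0.12, adjusted p = 0.183, limma). Without control replicate 1 it was 0.38, under the threshold. *Dkk2* was 0.269 and 0.343 FPKM (22 and 27 reads) in control and 0.811 and 0.823 (59 and 57 reads) in cKO cortices, and passed the filter through the cKO group alone, so its call adds no support to the count of 3. Its ratio was 2.67 and its log2 fold change 0.48 (SE 0.14, adjusted p = 0.265, limma), and the call was lost without cKO replicate 2 (0.47).

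Meningeal markers were higher in cKO cortices as well. All 8 of them were called higher, and their sum was 1.44 and 2.49 FPKM in control and 44.1 and 26.7 in cKO. Their control means were 0.0567 to 0.392 FPKM, so all 8 passed the filter through the cKO group alone. Blood vessel markers summed to 33.3 to 33.7 and 53.5 to 53.9 FPKM, with 2 of 5 called higher, and microglia markers to 10.5 to 12.2 and 18.3 to 24.7, with 3 of 4 called higher. Striatal markers summed to 23.4 to 25.4 and 33.1 to 39.5 FPKM, with 1 of 6 called higher. Neocortical markers were all present, at 729 to 827 and 748 to 769 FPKM. In cKO replicates 1 and 2, where meningeal markers summed to 44.1 and 26.7 FPKM, *Sfrp1* was 51.7 and 51.3, *Sfrp2* 17.1 and 17.1 and *Dkk2* 0.811 and 0.823. The part of meninges and vessels in the cortical values of *Sfrp1*, *Sfrp2* and *Dkk2* was not tested.

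*Dkk3* was 9.73 and 9.10 FPKM in control and 7.90 and 8.44 in cKO cortices, below both controls but not called (log2 fold change -0.18, 95% interval -0.39 to 0.02). *Rspo2* was 1.38 and 1.96 FPKM in control and 0.926 and 1.33 in cKO cortices, with a log2 fold change of -0.33 (95% interval -0.76 to 0.11) and, from reads, of -0.57, which was called. *Rspo3* was 7.30 and 7.43 FPKM in control and 8.24 and 6.07 in cKO cortices, with both controls between the cKO values. The 4 genes under the filter rested on few reads. *Frzb* had 19 and 7 reads in control and 26 and 26 in cKO, *Notum* 13 and 3 and then 17 and 24, *Sfrp4* 27 and 12 and then 21 and 22, and *Rspo1* 17 and 1 and then 7 and 12. Groups were apart for 5 of the 6 tested genes, 3 above and 2 below, and for 44.8% of all genes, 22.0% above and 22.8% below.

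Of the lists, 2 of 6 Wnt ligands tested were called higher in cortices, *Wnt5b* (log2 fold change 1.17) with an adjusted p value, as were 1 of 8 Frizzled receptors, 4 of 6 feedback targets, 1 of 2 other modulators and 0 of 5 receptors of Dickkopf proteins and R-spondins. *Wnt3*, the other ligand called, passed the filter through the cKO group alone (0.383 FPKM in control, 1.07 in cKO). The effects in hippocampi and cortices were compared for the 5 genes tested in both. None passed with an adjusted p value, where 1.61% of all genes did, and 2 had an unadjusted p below 0.05. These were *Dkk3* (difference 0.30, SE 0.09, adjusted p = 0.151, limma) and *Rspo2* (0.64, SE 0.25, adjusted p = 0.276, limma). The interval of the difference ran from -0.23 to 0.48 for *Sfrp2* and from -0.42 to 0.44 for *Sfrp1*. The hippocampal comparison served in all 3 of these tests of differences, so they share its libraries.

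**Figure D4:**
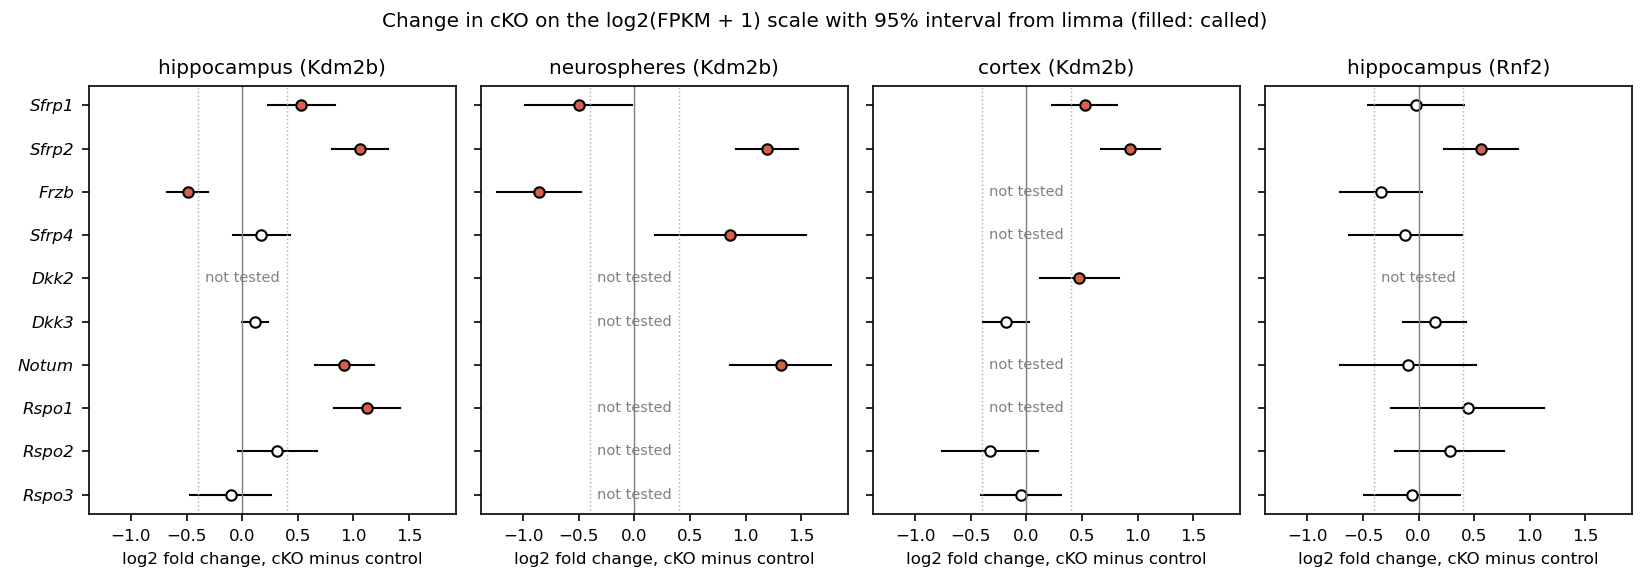
Log2 fold change of cKO minus control on the log2(FPKM + 1) scale (x axis) with its 95% interval from limma for the 10 genes in the 4 comparisons, with called genes filled and dotted lines at the threshold of 0.4. *Sfrp2* is called higher at the unadjusted p in every panel, from 0.56 in *Rnf2* hippocampi to 1.19 in neurospheres. With adjusted p values it passes only in *Kdm2b* hippocampi and neurospheres.

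Hippocampi labelled Rnf2 cKO, which kept most of the control level of *Rnf2* RNA, were compared with their controls to ask what loss of the PRC1 ligase does to the same genes. *Sfrp2* was the only one of 9 tested genes called, while 4.71% of 15764 genes were called, 2.86% higher and 1.85% lower. With adjusted p values neither *Sfrp2* nor any other gene of the table was called, by limma, whereas 742 genes were called at the unadjusted p with the fold threshold and 756 by limma-voom on reads. *Sfrp2* was 2.82 and 2.57 FPKM (91 and 86 reads) in control and 4.33 and 4.56 (154 and 159 reads) in Rnf2 cKO hippocampi. Its ratio was 1.65 and its log2 fold change 0.56 (SE 0.13, adjusted p = 0.590, limma), and the call was lost without cKO replicate 2 (0.53).

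*Sfrp1* was 10.96 and 14.6 FPKM in control and 11.4 and 13.7 in Rnf2 cKO hippocampi, where the cKO values lay between the controls (log2 fold change -0.02, 95% interval -0.45 to 0.41). *Notum* was 0.805 and 0.667 FPKM (29 and 25 reads) in control and 0.905 and 0.385 (36 and 15 reads) in cKO, again overlapping (-0.09, 95% interval -0.71 to 0.52). *Frzb* was 5.93 and 5.44 FPKM in control and 3.81 and 4.77 in cKO, below both controls but not called (-0.34, adjusted p = 0.713, limma). *Sfrp4* and *Dkk3* also did not overlap between groups, at 0.704 and 0.784 against 0.666 and 0.547 FPKM and at 31.8 and 29.1 against 32.1 and 35.4 FPKM, and were not called. Groups were apart for 4 of the 9 genes, 2 above and 2 below, and for 38.3% of all genes, 19.5% above and 18.7% below.

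*Rspo1* was 2.21 and 1.63 FPKM in control and 2.06 and 4.08 in Rnf2 cKO hippocampi, with a single high library. Its log2 fold change was 0.44 (SE 0.28, adjusted p = 0.762, limma), and it was called at 0.81 without cKO replicate 1. *Rspo2* was 5.82 and 4.79 FPKM in control and 5.48 and 7.99 in cKO, and *Rspo3* 5.97 and 6.26 in control and 4.92 and 6.88 in cKO, neither called. *Dkk2* had 8 and 19 reads in control and 15 and 4 in cKO and was not tested.

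Meningeal markers were lower in these cKO hippocampi, at sums of 43.1 and 42.0 FPKM in control and 19.9 and 29.1 in cKO, with 5 of 8 called lower. Choroid plexus markers summed to 50.9 and 13.1 FPKM in control and to 241 and 8.66 in cKO, none called. The library with the high *Rspo1*, *Rspo2* and *Rspo3*, cKO replicate 2, was the one with 8.66. Markers of Cajal-Retzius cells and hem summed to 70 and 98.1 FPKM in control and to 92.8 and 113 in cKO, none called. Their highest sum was also in cKO replicate 2. Control replicate 2, with the higher of these control sums, had the lower *Rspo1* and *Rspo2* and the higher *Rspo3* of the controls. The part of these cells in the results was not tested. None of the listed modulators, receptors, ligands or Frizzled genes were called, and 1 of 8 feedback targets was called higher.

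The *Kdm2b* and *Rnf2* effects in hippocampi were compared for 9 genes. None passed with an adjusted p value, which 0.683% of all genes did, and 4 had an unadjusted p below 0.05. *Notum* came nearest, at a difference of 1.01 (SE 0.22, adjusted p = 0.0647, limma), and it passed without the second Rnf2 control (1.07, adjusted p = 0.0447, limma). *Rspo1* (0.68), *Sfrp1* (0.56) and *Sfrp2* (0.50) followed with adjusted p values of 0.279, 0.268 and 0.188. For *Frzb* the difference was -0.15 with a 95% interval from -0.47 to 0.17, and for *Dkk3* -0.03 with an interval from -0.25 to 0.19.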

How the data were processed

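RNA-seq of P0 mouse tissue and neurospheres was read as FPKM deposited by the authors. Per the methods, hippocampal and neurosphere reads of poly(A) libraries were trimmed with cutadapt, aligned with STAR to mm10 and turned into FPKM with Cufflinks (2.2.1 in the submitters' processing notes), and the authors' calls came from DESeq2. The processing of the cortical and *Rnf2* tables is not given in the sources used here. Groups were taken from the labels. Nothing in them ties libraries of a group to separate animals or cultures, so p values measure the spread between these libraries. Same-numbered libraries were not treated as pairs, since no label ties the numbers to animals and the deviations of same-numbered libraries correlated at -0.103 to 0.0491 in *Kdm2b* hippocampi.

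Entries with no gene name were left out of all tests. Genes whose mean reached 0.5 FPKM were tested on log2(FPKM + 1) with limma 3.58.1 (lmFit, eBayes with a trend) in R 4.3.3, each table alone, and called at an unadjusted p under 0.05 and a log2 fold change over 0.4 in size, the study's thresholds. Adjusted p values follow Benjamini and Hochberg, over all genes tested. Differences between tables were interactions of genotype and table, at an adjusted p under 0.05. FPKM times gene length gave whole reads, within 0.05, for 100% of cortical and *Rnf2* values, and limma-voom was run on them as an alternative. Further alternatives were a pseudocount of 0.1, no filter or one of 1 FPKM, equal FPKM totals, median-ratio scaling, eBayes without a trend, a replicate block, summed entries of a name, adjusted p values and each library left out. Counting error limits genes with few reads. The tests were tried on simulated data. Promoters came from RefSeq (GRCm38.p6). Genes, lists, markers and tests were chosen with earlier results of these data known. All 10 genes are named, and genes of the pathway lists only where called with an adjusted p under 0.05 or to state a limit of a count. The crossed block of neurosphere replicates was chosen after seeing the data.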

Additional observations from a re-analysis of the deposited data

Results flagged for a closer look

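*Sfrp1* was noted because its change in Kdm2b cKO differed between hippocampi and neurospheres by its own test, at 1.04 on the log2 scale (SE 0.22, adjusted p = 0.00646, limma), with all 3 cKO hippocampi above and both cKO neurosphere libraries below their controls. In neurospheres *Sfrp1* passed the filter only through its control group, and the adjusted p was 0.0142 (limma) with no filter on low values. *Sfrp1* also moved opposite ways in neurospheres and cortices, where the ratio of means was 0.448 and 1.44, and that difference was not tested. *Frzb* was lower in every cKO hippocampus and neurosphere library (ratios 0.668 and 0.390) and higher in both cKO cortices (2.28, on 7 to 26 reads per library), and neither difference was tested because the cortical level was under the filter. *Dkk3* was higher in every cKO hippocampus (ratio 1.09) and lower in both cKO neurosphere libraries (0.352, at under 0.7 FPKM), which was not tested either. Groups of 2 or 3 libraries were not searched for single outlying libraries.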

How the results depend on the processing

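The count of 5 called genes in *Kdm2b* hippocampi was 5 or 6 under all alternatives. With adjusted p values, with or without the fold threshold, the count fell from 5 to 3 in neurospheres, from 3 to 0 in cortices and from 1 to 0 in *Rnf2* hippocampi. Leaving out a library gave 5 to 6 in *Kdm2b* hippocampi, 3 to 5 in neurospheres, 2 to 3 in cortices and 0 to 2 in *Rnf2* hippocampi. A group left with a single library was assumed to vary like the other. The number of genes whose change differed between hippocampi and neurospheres was 1, and it became 3 with a pseudocount of 0.1, 2 with no filter on low values, 0 with a filter of at least 1 FPKM, which *Sfrp1* did not pass in neurospheres, 2 with libraries rescaled to the same FPKM total, 2 without a trend in eBayes and 1 to 3 without single libraries. Between hippocampi and cortices it went from 0 to 1 with no filter, and for the *Kdm2b* against the *Rnf2* effect it was 0 and ranged from 0 to 1 without single libraries. With the replicate number as a block the counts were 5, 4, 3 and 1 in the 4 comparisons, *Sfrp1* losing its call in neurospheres, and 2 genes differed between hippocampi and neurospheres. In *Rnf2* hippocampi the block took the calls over all genes from 742 to 989. Deviations of same-numbered libraries correlated at -0.277 in neurospheres, -0.0528 in cortices and 0.161 in *Rnf2* hippocampi, and a block with neurosphere numbers crossed, chosen after seeing the data, gave 4 genes and 3084 calls over all genes against 3012. Over 779 alternative values of single genes 742 stayed on their side of the threshold, 24 lost and 13 gained a call, and none that was called changed sign. In 25 a value changed sign while called in neither setting. The cause of these changes was not tested. Depth limits *Dkk2*, *Notum*, *Sfrp4*, *Frzb* and *Rspo1* in cortices, where they had 1 to 59 reads per library.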
